A study of Mus with 2 samples.

Results

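Transcripts of 9 complement genes were followed across the spots of 2 CT26 tumor sections. The mouse behind 1 section was a control and the mouse behind the other had been treated with recombinant IL-7 (rIL7). The members were the 3 C1q chains (C1qa, C1qb and C1qc), C4b, C3, Cfb, the anaphylatoxin receptors C3ar1 and C5ar1, and the inhibitor Serping1. They make up 9 of the 32285 genes in the deposited tables, of which 19681 had at least 1 count in the sections. The genes were chosen by name, as components and receptors of 1 pathway, with their measured levels in these same sections, by section, by distance from the tissue outline and by co-variation across spots, already known. Those values are therefore a description, and no test supports them. The rule has no threshold, so there are no members just inside or just outside it.

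Both mice were BALB/c (labelled balb/c), 6 to 8 weeks old, and carried a subcutaneous tumor grown from injected CT26 cells, a single transplanted mouse colon carcinoma line. The rIL7 mouse received 10 µg of recombinant mouse IL-7 intraperitoneally on days 11 and 13 after transplantation, the other mouse was the PBS control, and both tumors were taken on day 15. RNA of a 10 µm frozen section was captured on a grid of barcoded spots (Visium), and captured molecules were told apart and counted by their unique molecular identifiers (UMIs). A spot covers several cells, so a difference in the number of cells of a type and a difference in RNA per cell cannot be told apart.

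Complement is a cascade of plasma and tissue proteins that tags surfaces for uptake, releases inflammatory peptides and can assemble a membrane pore. The classical pathway starts when C1q binds antibody or other ligands and its proteases C1r and C1s cleave C4 and C2. The alternative pathway amplifies deposited C3 through factor B, and C3a and C5a signal through C3ar1 and C5ar1 on myeloid and other cells. In tissues, macrophages and dendritic cells are a main source of C1q, whereas C3, C4 and the C1 proteases are also made by stromal and epithelial cells, and interferon gamma is a known inducer of several of these genes.

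The control section held 2219 spots and 22951678 UMIs after filtering, and the rIL7 section 1950 spots and 25729233 UMIs. The median spot had 9623 UMIs in the control section and 12921.5 under rIL7, so levels are given as UMIs per 1000000 UMIs (CPM), and shares of spots after thinning every spot to 5900 UMIs. The assay counts molecules from their 3′ ends, so CPM is not divided by gene length. With 1 section per group there are no replicates, no test was possible and no p-value is given. Brackets hold 95% counting intervals, exact Poisson for a level and exact binomial for a ratio or share, and say nothing of how animals, sections or libraries vary. To show how even a section was, its spots were divided at the median array row and the median array column into 4 quadrants, which are not replicates. The edge is the zone up to 2 grid steps from the outline of the largest piece of tissue (401 control and 330 rIL7 spots), and the interior is what remains of that piece (1806 and 1599 spots).

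C1q, the recognition molecule of the classical pathway, had the most UMIs of the products of the 9 genes. The 3 chain genes lie next to each other on chromosome 4 of mm10, C1qa (ENSMUSG00000036887) at chr4:136895916-136898844, C1qc (ENSMUSG00000036896) at chr4:136889801-136892936 and C1qb (ENSMUSG00000036905) at chr4:136880126-136886200. Their summed level was 1706 CPM (39152 UMIs) in the control section and 1788 CPM (46004 UMIs) under rIL7, a ratio of 1.05 [1.03 to 1.06]. The control quadrants ran from 1161 to 2195 CPM and the rIL7 quadrants from 1384 to 2147 CPM, so the sections overlapped. C1qa had 554 CPM in the control and 609 CPM under rIL7, C1qb 642 and 654 CPM, and C1qc 510 and 526 CPM, and the quadrants of each chain overlapped. After thinning, 99.8% of control spots and all rIL7 spots held a C1q UMI, so presence alone did not separate any region.

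The position of C1q transcripts differed more than their sum. From the outline inwards, the summed chains were nearly level over the outer rings of the control section, at 1910 CPM in the first ring and 1753 CPM 7 to 8 steps in, and fell to 1338 CPM at 12 steps and beyond. In the rIL7 section they went from 3231 CPM in the first ring through 2612 CPM in the second to 1971 CPM in the third, and lay between 1460 and 1814 CPM further in. The edge therefore stood at 1.12 times the interior in the control [1.09 to 1.15] and at 1.83 times in the rIL7 section [1.79 to 1.87]. At the edge the rIL7 section had 2898 CPM and the control 1864 CPM (ratio 1.55 [1.51 to 1.60]), whereas in the interior the order was the other way round, with 1582 CPM against 1666 CPM (ratio 0.950 [0.935 to 0.964]). Edge quadrants ran from 1274 to 2249 CPM in the control and from 2068 to 3897 CPM under rIL7, which overlapped in a narrow range. Interior quadrants ran from 1140 to 2183 CPM in the control and enclosed the rIL7 ones (1267 to 1903 CPM), so the interior difference was smaller than the spread within a section.

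The 3 chains form 1 protein, and their shares of the summed UMIs were close in both sections. C1qa made up 32.5% [32.0 to 32.9] of C1q UMIs in the control and 34.0% [33.6 to 34.5] under rIL7, C1qb 37.6% and 36.6%, and C1qc 29.9% and 29.4%. Within sections the C1qa share was larger at the edge, at 33.9% against 32.0% in the interior of the control and 36.2% against 33.3% in the rIL7 section. In the first ring of the rIL7 section C1qa reached 36.9%, and there it passed C1qb at 34.6%. Among control quadrants the C1qa share already ranged from 29.6% to 33.4%, a wider spread than that between edge and interior of the rIL7 section.

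**Figure D1:**
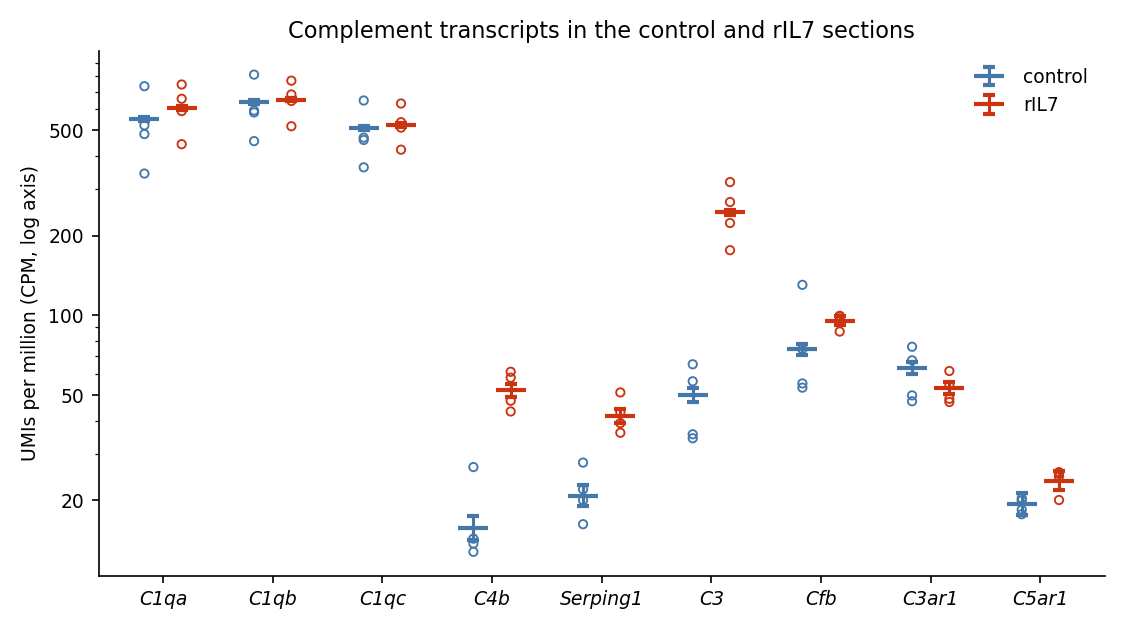
Level of each complement gene in UMIs per 1000000 (CPM, log axis) in the control (blue) and rIL7 (red) section. Horizontal marks are whole sections with 95% Poisson counting intervals and open circles are the 4 quadrants of each section. The quadrants of C3, C4b and Serping1 do not overlap between sections (C3 34.3 to 65.3 CPM in the control, 176 to 319 CPM under rIL7), while those of the 3 C1q chains, Cfb, C3ar1 and C5ar1 do.

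C4b encodes complement C4, the substrate of C1s whose larger fragment binds covalently to target surfaces. The gene (ENSMUSG00000073418, chr17:34728139-34743902) has a near-identical neighbour, C4a, so the assignment of its reads is uncertain. C4b had 15.8 CPM (362 UMIs) in the control and 52.1 CPM (1340 UMIs) under rIL7, a ratio of 3.30 [2.94 to 3.72]. The lowest rIL7 quadrant, at 43.3 CPM, was above the highest control quadrant, at 26.7 CPM. C4a was sparse, with 42 UMIs in the control and 33 under rIL7. The share of thinned spots with a C4b UMI was 8.19% in the control and 21.6% under rIL7 (14.4% and 39.7% before thinning).

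Much of the C4b difference lay at the outline. In the rIL7 section C4b went from 189 CPM in the first ring to 131 CPM in the second, 60.7 CPM in the third and 23.0 CPM at 12 steps and beyond, whereas the control rings lay between 9.18 and 24.1 CPM. Edge spots had 157 CPM and interior spots 31.3 CPM in the rIL7 section (5.03-fold [4.51 to 5.62]), against 20.4 and 14.7 CPM in the control (1.39-fold [1.08 to 1.76]). The ratio of rIL7 to control was 7.74 [6.20 to 9.75] at the edge and 2.13 [1.85 to 2.46] in the interior. The 4 quadrants did not overlap between sections in either zone, with 26.3 to 37.0 CPM against 12.1 to 23.8 CPM in the interior.

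Serping1 encodes the C1 inhibitor, which inactivates C1r and C1s and so restrains the first step of the classical pathway. The gene (ENSMUSG00000023224, chr2:84765360-84775444) had 20.8 CPM (478 UMIs) in the control and 41.8 CPM (1075 UMIs) under rIL7, a ratio of 2.01 [1.80 to 2.24]. All rIL7 quadrants (36.01 to 51.1 CPM) lay above all control quadrants (16.2 to 27.8 CPM). Of the 9 genes it was the most concentrated at the rIL7 outline. Edge spots held 54.9% of its UMIs on the largest piece and 15.4% of all UMIs on that piece. Its rIL7 rings read 189 CPM, 99.1 CPM and 46.3 CPM over the first 3 steps and 15.9 CPM at 12 steps and beyond. The interior levels were 20.9 CPM in the rIL7 and 18.8 CPM in the control section, a ratio of 1.12 [0.968 to 1.29]. Most of its section difference sat at the edge (5.02-fold [4.13 to 6.15]). The largest piece held 1004 of its 1075 rIL7 UMIs, and the 21 spots off that piece, in neither zone, held the rest. Interior quadrants overlapped (17.6 to 27.9 CPM against 12.6 to 22.5 CPM).

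C3 is the central component on which all activation routes converge, and its cleavage yields the opsonin C3b and the anaphylatoxin C3a. The gene (ENSMUSG00000024164, chr17:57203967-57228136) showed the largest section difference of the members, with 50.02 CPM (1148 UMIs) in the control and 245 CPM (6296 UMIs) under rIL7, a ratio of 4.89 [4.59 to 5.21]. The control quadrants read 65.3, 35.5, 56.3 and 34.3 CPM and the rIL7 quadrants 176, 223, 268 and 319 CPM, with no overlap. Only 8 of the 7613 genes whose mean reached 20 CPM had a larger ratio. In thinned spots, C3 was found in 24.4% [22.6 to 26.4] of control and 61.4% [59.1 to 63.6] of rIL7 spots, and 35.7% and 83.8% before thinning.

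C3 was higher under rIL7 in every ring, and most of all at the outline. The control rings stayed between 40.2 and 61.9 CPM. The rIL7 rings went from 865 CPM in the first ring to 527 CPM in the second, 242 CPM in the third and 180 CPM in the fourth, then levelled off at 141 CPM from 9 steps inwards. Edge spots had 683 CPM against 160.5 CPM in the interior of the rIL7 section (4.26-fold [4.05 to 4.48]), and 60.6 against 47.5 CPM in the control (1.28-fold [1.11 to 1.46]). The rIL7 section exceeded the control 11.3-fold [9.94 to 12.8] at the edge and 3.38-fold [3.14 to 3.64] in the interior. All 4 edge quadrants (520 to 1065 CPM) and all 4 interior quadrants (111 to 208 CPM) of the rIL7 section lay above the matching control values (47.0 to 102 CPM and 31.0 to 67.9 CPM).

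Set against C1q, C3 was also higher. For every 100 C1q UMIs there were 2.93 C3 UMIs [2.76 to 3.11] in the control section and 13.7 [13.3 to 14.1] under rIL7. At the rIL7 edge there were 23.6 and in its interior 10.1, against 3.25 and 2.85 in the control. C4b per 100 C1q UMIs was 0.925 in the control and 2.91 under rIL7, and Serping1 1.22 and 2.34. C3ar1 was the exception, at 3.71 in the control and 2.97 under rIL7.

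**Figure D2:**
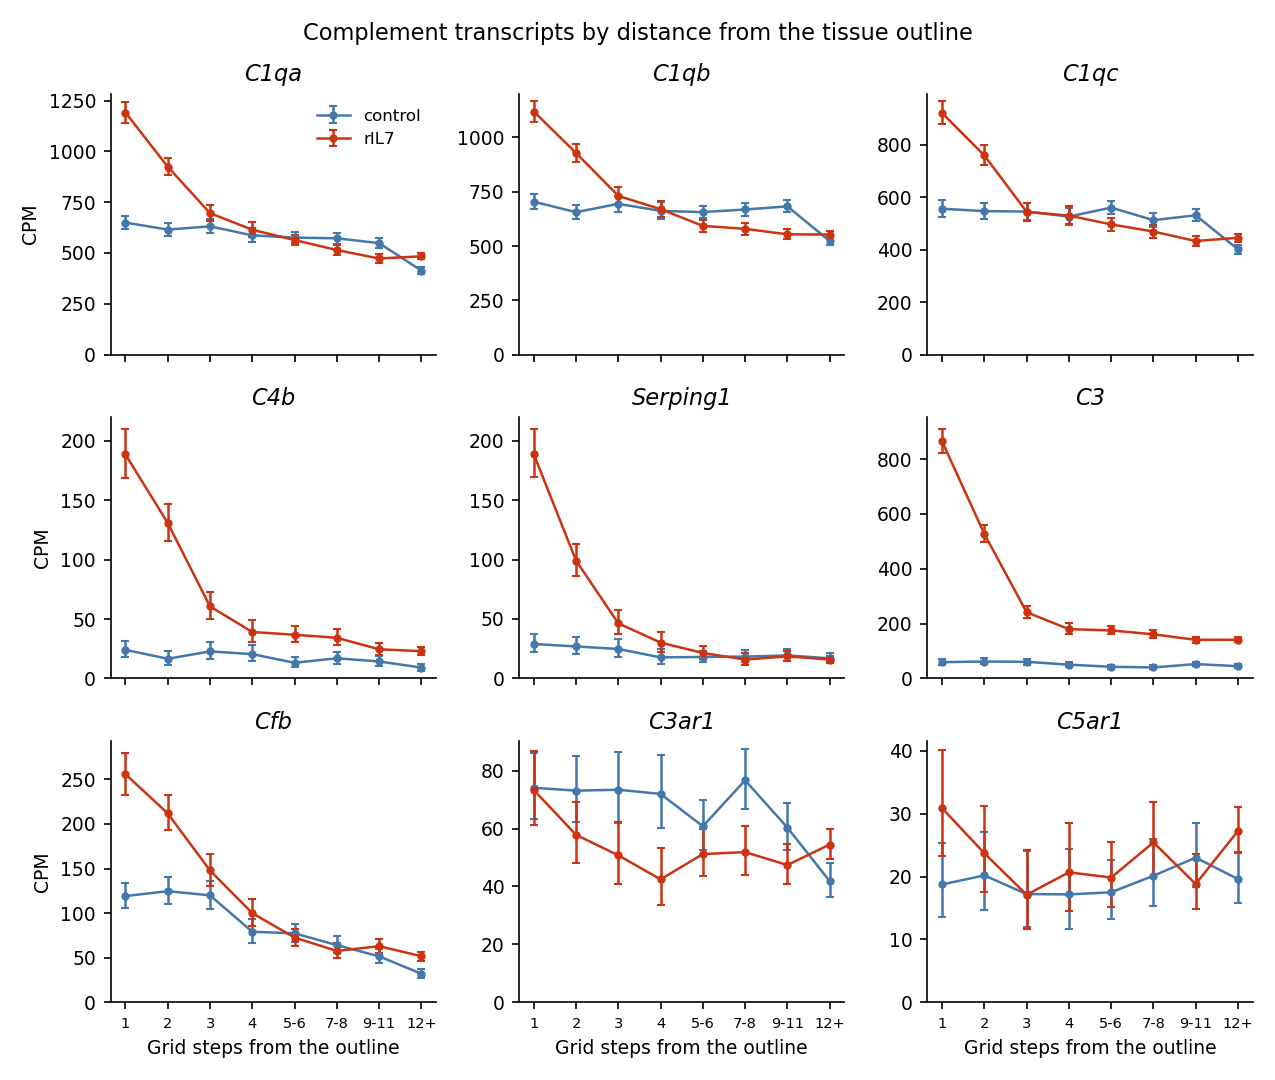
Level in CPM (linear axes from 0) of the 9 complement genes against distance from the tissue outline in grid steps, for the control (blue) and rIL7 (red) section, with 95% Poisson counting intervals. C3, C4b and Serping1 fall from 865, 189 and 189 CPM in the first rIL7 ring to 141, 23.0 and 15.9 CPM at 12 steps and beyond, Cfb falls inwards in both sections, and C3ar1 goes from 74.1 CPM to 41.8 CPM in the control and from 73.3 CPM to 54.5 CPM under rIL7.

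Cfb encodes factor B, the protease subunit of the alternative pathway C3 convertase, and lies beside its classical counterpart C2 on chromosome 17 (ENSMUSG00000090231, chr17:34856374-34862514). It had 74.5 CPM (1710 UMIs) in the control and 95.5 CPM (2456 UMIs) under rIL7, a ratio of 1.28 [1.204 to 1.36]. The rIL7 quadrants were alike (86.9 to 99.5 CPM), but the control quadrants ran from 53.3 to 130 CPM and enclosed them. Cfb had the highest edge ratio of the members in the control section. Its control rings read 119, 125 and 120 CPM over the first 3 steps and 32.0 CPM at 12 steps and beyond, and its rIL7 rings 256, 212 and 148 CPM and 51.7 CPM. The edge stood at 1.94 times the interior [1.74 to 2.14] in the control and at 3.33 times [3.07 to 3.62] under rIL7. The control edge was uneven, with 206 CPM in 1 quadrant and 92.3 to 112 CPM in the other 3.

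The anaphylatoxin receptors had the lowest ratios of edge to interior of the members in the rIL7 section. C3ar1, the receptor for C3a (ENSMUSG00000040552, chr6:122847140-122856157), was the 1 member with a lower level under rIL7, at 53.2 CPM (1368 UMIs) against 63.3 CPM (1452 UMIs) in the control, a ratio of 0.840 [0.780 to 0.905]. Its quadrants overlapped, at 47.1 to 61.6 CPM under rIL7 and 47.4 to 76.1 CPM in the control. C5ar1, the receptor for C5a (ENSMUSG00000049130, chr7:16246743-16259540), had 23.7 CPM (611 UMIs) in the rIL7 and 19.4 CPM (445 UMIs) in the control section, a ratio of 1.22 [1.08 to 1.39]. Its quadrants overlapped at one end, with 20.1 to 25.6 CPM against 17.7 to 20.4 CPM. The ratio of edge to interior stood at 1.21 [1.07 to 1.37] in the control and 1.27 [1.11 to 1.46] under rIL7 for C3ar1, and 0.999 [0.781 to 1.27] and 1.18 [0.944 to 1.45] for C5ar1. In thinned spots, C3ar1 was found in 29.2% of control and 25.5% of rIL7 spots and C5ar1 in 11.1% and 11.99%.

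Counted with a size of at least 1.5-fold, 3 of the 9 genes (C3, C4b and Serping1) were higher in the rIL7 section and 0 were lower, where 1.97% of the 7613 genes whose mean reached 20 CPM were higher and 1.27% lower. At the edge 6 of 9 were higher under rIL7 (C3, C4b, Serping1, Cfb, C1qa and C1qc, with C1qb just short at 1.495), against 5.67% of all such genes. In the interior 2 of 9 were (C3 and C4b), against 1.66%. Edge over interior reached 1.5-fold for 7 of 9 in the rIL7 section, all but the receptors, against 4.41% of all such genes, and for 1 of 9 (Cfb) in the control, against 0.565%. All 4 rIL7 quadrants were above all 4 control quadrants for 3 of 9 over whole sections (10.0% of all such genes), for 3 of 9 at the edge (7.83%) and for 2 of 9 in the interior (8.43%). Their median log2 ratio of rIL7 to control over whole sections was 0.29, and it was -0.01 for all such genes. Because these contrasts were among those on which the genes were selected, the shares are given side by side and nothing is read from them.

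**Figure D3:**
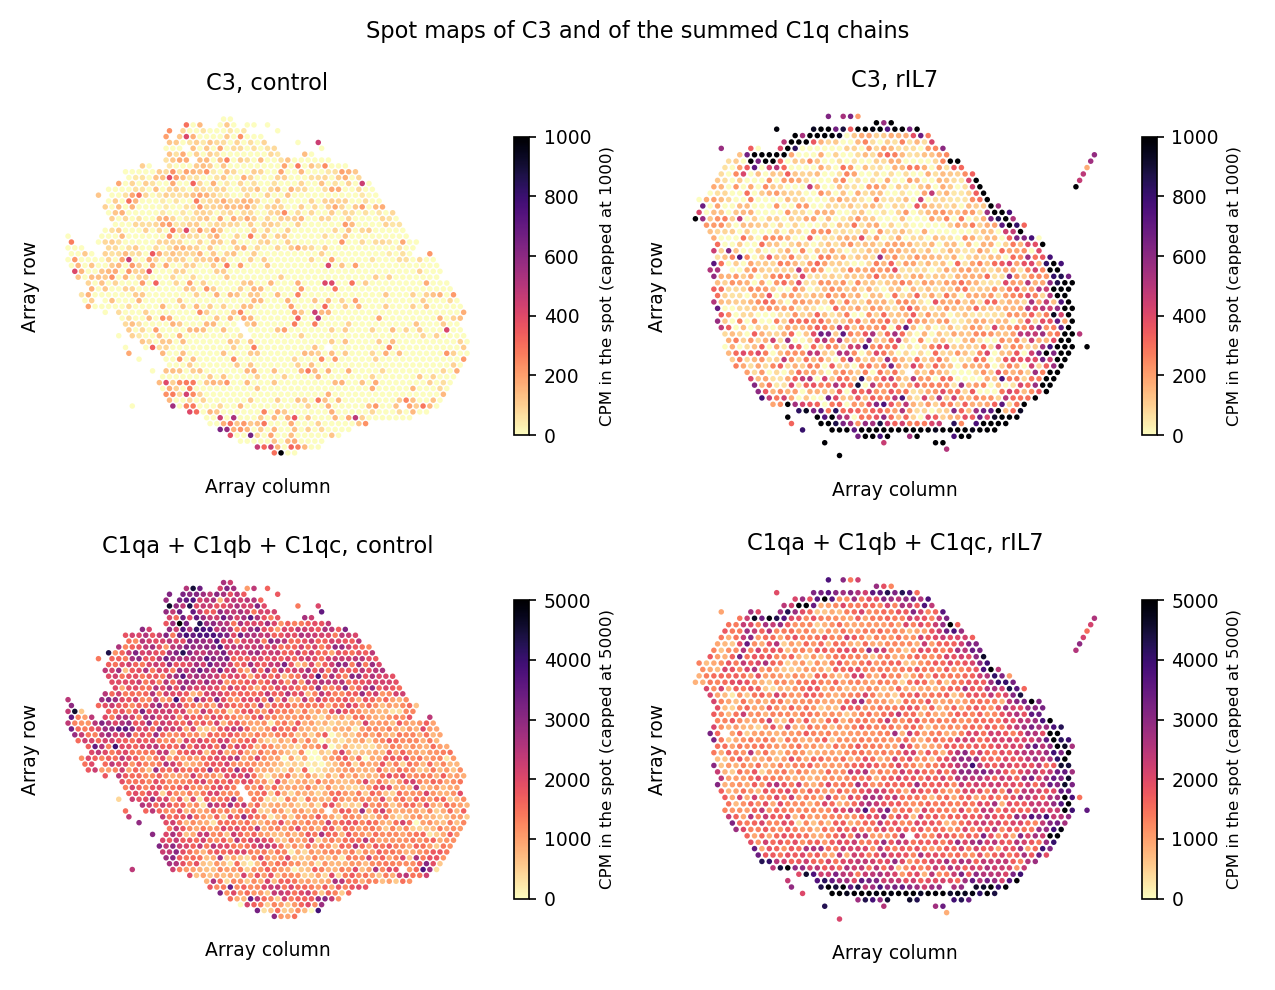
Spot maps of C3 (top, color capped at 1000 CPM) and of the summed C1q chains (bottom, capped at 5000 CPM) in the control (left) and rIL7 (right) section, 1 dot per spot at its array position. A rim of spots high in C3 follows much of the rIL7 outline, while C1q is seen throughout both sections. Pooled over edge spots, C3 has 683 CPM in the rIL7 section against 60.6 CPM in the control.

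Across spots, the members did not form 1 block. Spearman's rho between thinned UMIs is given here as a description over 2002 control and 1869 rIL7 spots, which share a section and lie beside each other, so it carries no p-value. Over all 36 pairs of members the median rho was 0.0436 in the control and 0.146 under rIL7. The C1q chains went together in both, with 0.262 to 0.290 in the control and 0.293 to 0.340 under rIL7. C3 and summed C1q had a rho of 0.158 in the control and 0.355 under rIL7, and Cfb and C1q 0.167 and 0.278. The highest value of a receptor was that of C3ar1 with C1q, 0.119 in the control and 0.0588 under rIL7.

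The values also depended on the number of C3 UMIs and on the zone. When each gene was thinned further until both sections had the same mean UMIs per spot, the rho of C3 with C1q was 0.158 in the control and 0.208 under rIL7. Over the 280 thinned edge spots of the rIL7 section that rho was 0.688, and over its interior 0.165, against 0.166 in the control interior. Over the 326 control edge spots it was 0.0849. With equal UMIs the edge values were 0.291 under rIL7 and 0.0849 in the control, so the gap at the edge narrowed but kept its direction, and the interior values were 0.101 and 0.166.

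At the rIL7 edge, C4b had a rho of 0.0726 with C1q, Serping1 had 0.257 and C3 0.688. Thinned to the means of the control edge, the values were -0.0655 for C4b, 0.198 for Serping1 and 0.291 for C3. This thinning evens each gene between the sections and leaves the genes unequal among themselves. The means left were 0.114 UMIs per spot for C4b, 0.182 for Serping1 and 0.429 for C3. The values follow the order of these means, so they cannot tell the genes apart from their counts. The 4 edge quadrants also differed in their order. C3 read 559, 668, 520 and 1065 CPM and summed C1q 2068, 3263, 2546 and 3897 CPM over quadrants 1 to 4, both highest in the last. C4b read 236, 124, 146 and 121 CPM and Serping1 164, 137, 131 and 129 CPM, both highest in quadrant 1, where C1q was lowest, although the counting intervals of Serping1 overlapped. Each edge quadrant held at least 100 C4b and 106 Serping1 UMIs. Cfb read 270, 285, 142 and 240 CPM, lowest in quadrant 3.

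The rho of the members with the marker lists also differed at the rIL7 edge. These values were not evened for counts, and C4b and Serping1 had fewer UMIs there than C1q and C3. With the MHC class II list (H2-Aa, H2-Ab1, H2-Eb1 and Cd74, which present antigen), rho over edge spots was 0.81 for C1q and 0.75 for C3, but -0.00 for C4b and 0.22 for Serping1. With the macrophage list it was 0.50 for C1q, 0.45 for C3 and 0.05 for C4b. With the fibroblast list (collagens, Dcn, Lum and the PDGF receptors) it was -0.06 for C1q and -0.03 for C3, against 0.21 for C4b and 0.26 for Serping1. Over all rIL7 spots with equal UMIs, rho was higher with MHC class II than with fibroblast markers for C4b (0.114 and 0.0977) and Serping1 (0.222 and 0.148). At the control edge the MHC class II list had 0.38 with C1q, 0.24 with C3 and 0.35 with Cfb. The receptors had values between -0.12 and 0.15 with every list at either edge.

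**Figure D4:**
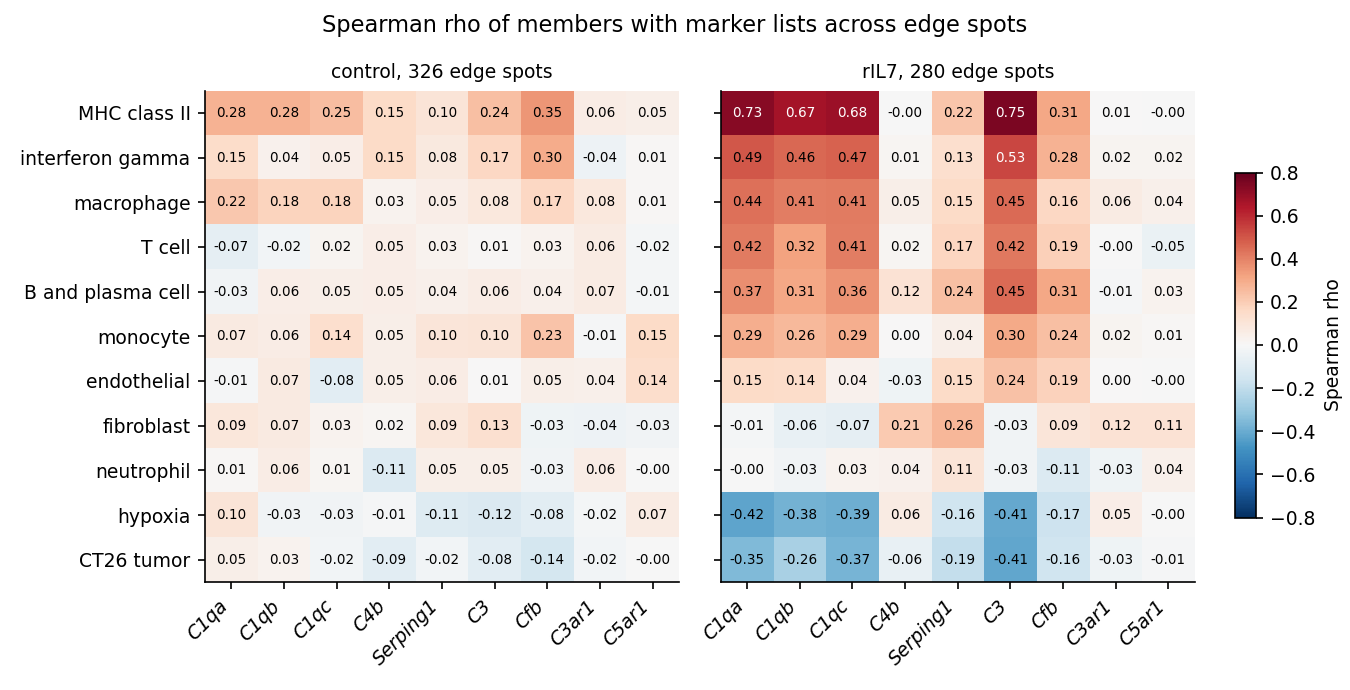
Spearman's rho across thinned edge spots between each complement gene (columns) and the summed UMIs of each marker list (rows), in the control (326 spots, left) and rIL7 (280 spots, right) section. At the rIL7 edge, the C1q chains and C3 share high values with MHC class II (0.67 to 0.75). C4b and Serping1 have their highest values there with fibroblast markers (0.21 and 0.26). Over all rIL7 spots with equal UMIs, both were higher with MHC class II (0.114 and 0.222) than with fibroblast markers (0.0977 and 0.148).

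Several marker lists moved with the edge and the section, and their part in the complement results was not tested. The 7 macrophage markers summed to 651 CPM in the control and 671 CPM under rIL7 (4 of 7 higher), with all 7 detected in both. Their level at the edge was 672 CPM in the control and 892 CPM under rIL7, against 646 and 630 CPM in the interior, a ratio of rIL7 to control of 1.33 at the edge. MHC class II summed to 3052 CPM at the control edge and 7579 CPM at the rIL7 edge, a 2.48-fold difference. In the interior it summed to 2554 CPM in the control and 2342 CPM under rIL7, a ratio of 0.917. Its edge quadrants ran from 2339 to 4128 CPM in the control and from 4212 to 12216 CPM under rIL7. The 6 T cell markers summed to 128 CPM at the control edge and 365 CPM at the rIL7 edge (2.85-fold), and to 118 and 157 CPM in the interior. Fibroblast markers summed to 1928 CPM at the control edge and 3317 CPM at the rIL7 edge, and to 1979 and 1938 CPM in the interior. Of these 7 markers, 4 were higher in the rIL7 section, and 4 were higher at its edge than in its interior. The edge quadrants of this list overlapped, at 1609 to 2060 CPM in the control and 1897 to 4496 CPM under rIL7. The 8 interferon gamma response genes (among them Irf1, Gbp2, Cxcl9 and Cxcl10) were all higher in the rIL7 section, with 638 CPM in the control and 1189 CPM under rIL7, and were 2.43-fold higher at the edge and 1.76-fold in the interior.

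Markers of other tissues also differed between the outlines, and their part in the complement results was not tested. B and plasma cell markers summed to 7.38 CPM at the control edge and 771 CPM at the rIL7 edge, where quadrant 1, the highest for C4b and Serping1, had 2082 CPM. Keratinocyte markers summed to 121 CPM at the control edge and 30.1 CPM at the rIL7 edge, and Krt5 had 196 and 0 UMIs in the sections. The control excess lay in edge quadrant 1, at 267 CPM. The remaining control edge quadrants had 30.5 to 41.7 CPM and the rIL7 ones 26.3 to 35.7 CPM. Krt10 gave 966 of the 970 rIL7 UMIs. Adipocyte markers summed to 83.9 CPM at the control edge and 193 CPM at the rIL7 edge, with overlapping quadrants (68.0 to 113 CPM and 105 to 356 CPM). All 5 were higher in the rIL7 section, but Fabp4 alone gave 2424 of the 2433 control and 3385 of the 3459 rIL7 UMIs. Skeletal muscle markers summed to 63.9 CPM in the control and 6.96 CPM under rIL7, mostly in the control interior. The 2 CT26 markers (Rpl39l and Baiap2l1) summed to 1205 CPM at the control edge and 757 CPM at the rIL7 edge.

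Spots were also ranked on 4 of the lists (interferon gamma, macrophage, fibroblast and neutrophil), none of which holds a member, divided into 3 equal classes, and the highest class compared with the lowest. In the rIL7 section, spots high in the interferon gamma list had more Serping1 (3.33-fold), C3 (3.23-fold), Cfb (2.71-fold), C4b (2.04-fold) and C1q (1.61-fold), whereas C5ar1 stood at 0.866. In the control section the order was led by Cfb (2.59-fold), ahead of C4b (1.97-fold), C3 (1.82-fold), Serping1 (1.55-fold) and C1q (1.32-fold). Ranked on the fibroblast list, the rIL7 ratios were 2.58 for Serping1, 2.27 for C4b, 1.52 for C3 and 1.13 for C1q, against 1.36, 1.07, 1.40 and 1.28 in the control. Ranked on the macrophage list, they were 2.20 for C3, 1.99 for Cfb, 1.95 for C4b, 1.95 for Serping1 and 1.502 for C1q, against 1.36, 1.62, 1.11, 1.30 and 1.34 in the control. C4b and Serping1 thus had higher levels in spots high on either list under rIL7. Ranked on neutrophil markers, every member stood between 0.827 and 1.24 in the rIL7 section and between 0.859 and 1.17 in the control. Edge spots were unevenly spread over these classes, making up 32.1% of the highest and 4.98% of the lowest class on the interferon gamma list in the rIL7 section.

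The genes most like each member over spots, by the mean rho of both sections, were led by Apoe or Cd74, the invariant chain of MHC class II, for C1q, C3 and Cfb. For C1q these were Apoe (0.480), Lyz2 (0.471), Cd74 (0.463), H2-Ab1 (0.435) and Tmsb4x (0.406). For C3 they were Cd74 (0.310), H2-Ab1 (0.289), Apoe (0.286), H2-Eb1 (0.282) and H2-Aa (0.271), and for Cfb Cd74 (0.267), Apoe (0.261), Ifi27l2a (0.247), H2-Ab1 (0.237) and Tmsb4x (0.236). C4b was closest to Bgn (0.167), Ifi27l2a (0.161), Ccl8 (0.153), Cpxm1 (0.144) and Apoe (0.141), and Serping1 to Cpxm1 (0.179), Bgn (0.176), Tmsb4x (0.159), H2-Eb1 (0.156) and H2-Aa (0.154), with Bgn encoding the matrix proteoglycan biglycan. The means for C4b and Serping1 came mostly from the rIL7 section, where these genes had values of 0.225 to 0.302 against 0.0297 to 0.0975 in the control. For C4b, the control values of Cpxm1 (0.0297) and Apoe (0.0459) were below the 99th percentile of all genes there (0.0599). For C3ar1 the highest were Lgmn (0.0918), Apoe (0.0913), B2m (0.0893), Ccl8 (0.0844) and mt-Co3 (0.0795), and for C5ar1 Dusp3 (0.0733), Actb (0.0585), Med23 (0.0538), Tmem222 (0.0535) and Cbx3 (0.0524), values too low to read in counts this sparse. All these values share the section and the thinned depth, and rarer genes carry more counting noise.

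The rest of the complement system was read from a list of 50 further genes, of which 27 had at least 20 UMIs in both sections together, 14 had 1 to 19 and 9 had 0. Among the 27, 10 were at least 1.5-fold higher in the rIL7 section and 0 were at least 1.5-fold lower, against 7.72% and 5.95% of the 14313 genes with as many UMIs. The median log2 ratio was 0.31 over the 27 and -0.00 over all such genes. The 6 with the most UMIs were Calr, Clu, C1qbp, Masp1, Cfp and C1s1.

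The proteases that C1q activates were among the genes that differed. C1s1 had 64.0 CPM (1470 UMIs) in the control and 199 CPM (5115 UMIs) under rIL7 (3.10-fold [2.93 to 3.29]), and C1ra 25.6 and 77.0 CPM (3.01-fold [2.74 to 3.30]). Their near-identical copies C1s2 (3.59-fold [3.03 to 4.27]) and C1rb (2.66-fold [2.30 to 3.10]) stood alike, and reads can be split between copies. Their levels did not lean to the rIL7 outline by the size seen for C3 (4.26) or C4b (5.03). Edge over interior in the rIL7 section was 0.772 for C1s1, 1.13 for C1ra, 0.949 for C1s2 and 1.32 for C1rb. Their ratios of rIL7 to control in the interior were 2.97, 2.77, 3.21 and 2.44, each above the 1.12 of their inhibitor Serping1. At the edge, in the same order, they were 3.76, 4.43, 6.70 and 4.05, and only that of C1s2 was above the 5.02 of Serping1. C2, cleaved by C1s, had 3.75 CPM (86 UMIs) and 5.52 CPM (142 UMIs), 1.47-fold [1.12 to 1.95], and an edge 4.91 times its interior in the rIL7 section and 1.88 times in the control.

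Of the alternative pathway, Cfd is the protease that cleaves factor B and a gene of fat cells. It had 0.654 CPM (15 UMIs) in the control and 9.52 CPM (245 UMIs) under rIL7 (14.6-fold [8.66 to 26.4]). These whole-section values include the 21 rIL7 spots off the largest piece, which held a large part of its UMIs. On that piece, its rIL7 edge reached 22.7 CPM against 1.48 CPM further in, a ratio of 15.3. Against the control, edge spots stood at 33.8-fold [11.2 to 167] and interior spots at 2.27-fold [1.14 to 4.83], on few control UMIs. Its rIL7 quadrants, which also include the spots off the piece, were uneven, at 1.41, 3.45, 5.62 and 26.8 CPM. Cfp, which encodes properdin, the stabilizer of the convertase, had 109 and 141 CPM (1.30-fold [1.24 to 1.37]), with an rIL7 edge 1.85 times its interior. The surface inhibitors Cd55 (1.67-fold [1.16 to 2.43]) and Cd59a (1.62-fold [1.08 to 2.47]) rested on 88 and 71 rIL7 UMIs.

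Also past 1.5-fold were C6, a component of the membrane pore, with 37 UMIs in the control and 136 under rIL7 (3.28-fold [2.27 to 4.85]), and Fcna, a ficolin of the lectin pathway, with 481 and 1001 UMIs (1.86-fold [1.66 to 2.07]). Hc, which encodes C5, the source of the ligand of C5ar1, had 18 and 21 UMIs, too few to place. Clu, which encodes clusterin, an inhibitor of the pore, had 393 CPM in the control and 279 CPM under rIL7 (0.708 [0.686 to 0.730]) and was lower at the edge than in the interior in both, at 0.582 and 0.389. Masp1, a protease of the lectin pathway, had 163 and 173 CPM, with an edge at 0.756 and 0.535 of the interior. Calr (473 and 494 CPM) and C1qbp (248 and 234 CPM), which encode C1q-binding proteins with other functions in many cells, differed by less than the 1.5-fold size.

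At the edge of the rIL7 section, 10 of the 27 genes stood at least 1.5-fold over the interior and 4 at least 1.5-fold under it, against 14.1% and 11.3% of the 14313 genes. In the control 1 of 27 stood over (C2) and 8 under, against 5.42% and 8.4%.

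**Figure D5:**
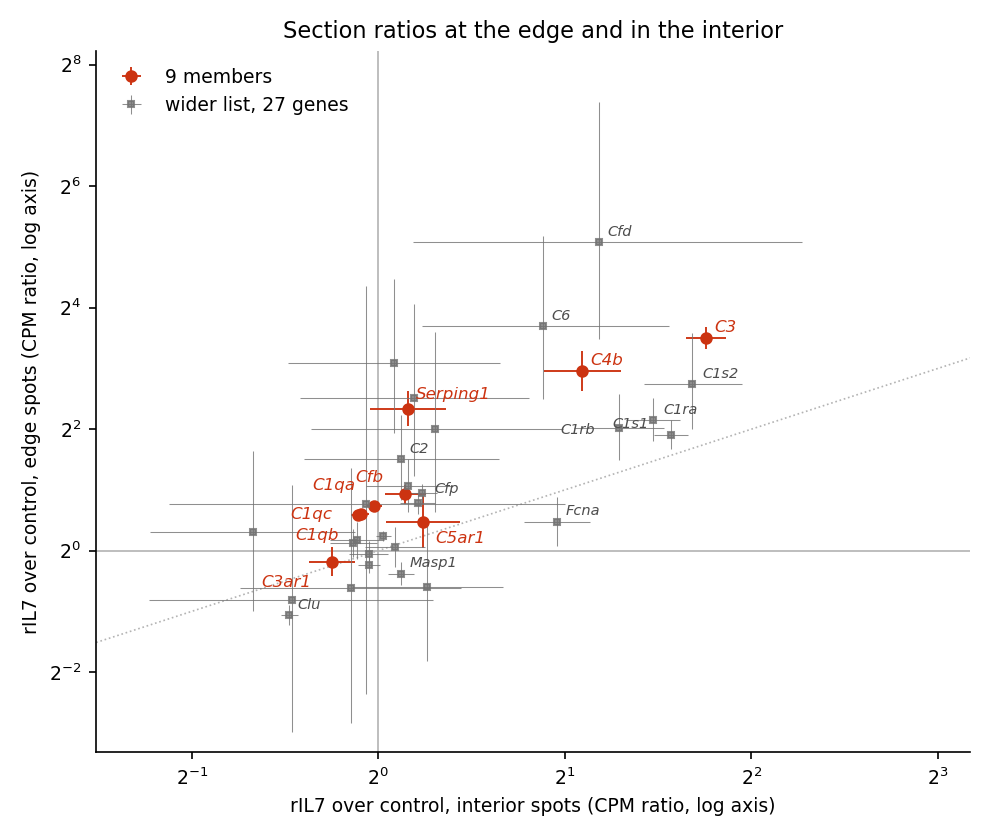
Ratio of rIL7 to control level in edge spots (vertical, log axis) against the same ratio in interior spots (horizontal, log axis) for the 9 members (red) and the 27 further complement genes with at least 20 UMIs (grey), with 95% counting intervals and a dotted line of equal ratios. C3 (11.3 at the edge, 3.38 in the interior), C4b and Serping1 lie far above the line, the C1r and C1s genes lie nearer to it, and C3ar1 lies under 1 on both axes (0.883 and 0.842).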

How the data were processed

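Each sample was 1 Visium section (1 library per group). The authors counted barcodes and genes with Space Ranger 1.1.0 against mm10 (per the labels), and the matrices they deposited give unnormalized UMI counts for each gene in each spot. In-tissue flags and array positions were used as given.

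Spots over tissue with under 10% mitochondrial UMIs and over 200 genes were kept (the study's filter), removing 2 control and 1 rIL7 spots. Spots off the largest piece (12 control, 21 rIL7) entered values of whole sections and their quadrants, not of zones. UMIs were summed per zone and divided by the zone total (CPM). Ratios carry exact binomial (Clopper-Pearson) and levels exact Poisson 95% intervals, and the interval step was tested on simulated data. For spot shares and Spearman's rho, spots were thinned to 5900 UMIs, leaving out 217 control and 81 rIL7 spots below that depth. The sections share 1702 spot barcodes, which name grid positions and no cells. The share with a UMI also depends on RNA that spreads in the tissue, which was not measured here.

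The members, marker lists and wider list were chosen with earlier results of these data known. Named genes were the members, the wider-list genes with at least 20 UMIs that were the 6 most abundant, past 1.5-fold, or partners or inhibitors of a member, and the 5 genes most like each member. C4a and Hc are named as partners. Some genes of the lists entered the counts and sums but are not reported here by name. Coordinates come from RefSeq GRCm38.p6, matched by symbol. Alternatives covered filters, totals, scaling (TMM in edgeR 4.0.16, median of ratios in DESeq2 1.42.0), edge width and thinning. Equal-UMI thinning, edge-only rho and quadrants within zones were chosen after seeing the data. Protein and promoter sequences were not used here. Python 3.11.15, numpy 2.4.6, scipy 1.17.1, pandas 2.3.3, matplotlib 3.10.9 and R 4.3.3 were used.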

Additional observations from a re-analysis of the deposited data

Results flagged for a closer look

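The ratio of rIL7 to control pointed opposite ways at the edge and in the interior for summed C1q (1.55 and 0.950), C1qb (1.495 and 0.928) and C1qc (1.51 and 0.938), each interval lying on its own side of 1. Masp1 did so in the other order (0.770 at the edge and 1.09 in the interior). C1ra stood at 1.13 times the interior at the rIL7 edge and at 0.709 times at the control edge. With 1 section per group, none of these differences was tested.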

How the results depend on the processing

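All values here are log2 ratios unless named otherwise. In interior spots only, the ratio of rIL7 to control had the opposite sign for summed C1q (-0.0745, 0.07 in all spots), C1qa (-0.0210), C1qb (-0.107, 0.03 in all spots with an interval that held 0) and C1qc (-0.0918). For summed C1q it was 0.22 with spots weighted equally and 0.64 at the edge, and for C3 2.51, 1.76 in the interior and 3.49 at the edge (2.29 in all spots). Edge over interior with spots weighted equally was 0.27 for C1q (0.16 pooled) and 0.71 for C3 (0.35) in the control, and 0.94 and 2.25 in the rIL7 section. In the latter it was 0.95 for C1q and 2.16 for C3 with an edge of 1 step and 0.67 and 1.60 with 4 steps (0.87 and 2.09 with 2 steps). Members at least 1.5-fold higher at the control edge (1) numbered 2 with totals free of mitochondrial, ribosomal and haemoglobin genes, 4 with equal weights, 2 with 1 step and 2 with 4 steps, 4 at the smaller fold tried and 0 at 2-fold. At 2-fold the rIL7 edge kept 4 (7 at 1.5-fold), and the rIL7 to control count was 6 in edge spots (3 in all spots).

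The rho of C1q with C3 was 0.0866 in the control and 0.301 under rIL7 with thinning to 3000 UMIs, 0.219 and 0.454 unthinned, 0.0849 and 0.688 at the edge, and, in the rIL7 section, 0.165 in the interior and 0.208 over all spots with equal UMIs. The main values were 0.158 and 0.355. The median rho of members in the rIL7 section was 0.205 unthinned, 0.0339 in the interior and 0.0914 with equal UMIs. For single members other than C3, 47 of 64 alternatives of section ratios and 80 of 96 of edge ratios moved by less than the counting interval. Of those 64, 15 moved further and 2 reversed sign, with a reversal counted only where the main interval left out 0. Leaving out the pair of C1q and C3, 57 of 96 alternatives of rho moved by less than 0.05. TMM and median-of-ratios scaling turned no sign. No paired analysis was possible because each group holds 1 section. C5ar1, C4b and Serping1 rest on under 500 control UMIs each.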
